A study of Mus musculus and Homo sapiens with 41 samples.

Results

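Nuclear genes for the protein components of the mitochondrial ribosome were followed in RNA-seq of mouse myeloid progenitors in which PLZF was either raised or mutated. Members were the genes whose symbol is Mrpl or Mrps followed by a number and at most 1 letter, less 1 gene that the selection leaves out, and the rule itself uses no measured value. This gave 77 genes, of 53756 listed for granulocyte-monocyte progenitors (GMPs) and 13237 listed for 416b cells, and all 77 were listed in both. Large subunit genes numbered 50 and small subunit genes 26, with Mrps18a and Mrps30 placed in the large subunit where their proteins sit. The remaining gene, Mrps36, encodes a subunit of the 2-oxoglutarate dehydrogenase complex in spite of its name. Proteins with a bacterial counterpart are encoded by 46 members and mitochondria-specific ones by 31, a class in which Mrps36 was kept.

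PLZF, encoded by Zbtb16, is a zinc finger transcription factor of hematopoietic progenitors. The 416b line is a murine myeloid line that models Cd34-positive progenitors. It was transduced with a lentivirus carrying PLZF-Flag with GFP, or with the Empty vector, and GFP-positive cells were sequenced as 1 library each. GMPs, which carry c-Kit, Cd34 and FcγR but neither Sca-1 nor lineage markers, were sorted from C57BL/6 Cd45-1 mice that had been lethally irradiated and given WT or Zbtb16lu/lu bone marrow, so both genotypes had been through transplantation. The table holds 2 libraries per genotype. Each carries a date of unstated meaning: library 1 of WT and library 1 of Zbtb16lu/lu share theirs, and the libraries numbered 2 have different dates. The methods state more RNA extractions than the table has libraries, and whether these came from separate mice, and whether mice were pooled is not stated, so the spread may be in part technical. The age of the mice was not given in the labels.

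The mitochondrial ribosome makes the few respiratory chain proteins that mitochondrial DNA encodes. Its ribosomal RNAs come from mitochondrial DNA, but every one of its proteins is encoded in the nucleus, made in the cytosol and imported. The small subunit decodes the mRNA, and the large subunit forms peptide bonds. ETS factors such as GABPA, together with NRF1 and YY1, are well known to bind promoters of nuclear genes for mitochondrial proteins. In blood, mitochondrial activity rises as stem cells give way to committed progenitors.

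To show what these promoters look like, 300 bases (250 before to 50 after the start of transcription) are given for 6 members whose RNA values are described later, chosen because their promoters hold at least 1 of 3 motifs and their ratios lay at an end of the range. They are from RefSeq, build GRCm38.p6, and run 5′ to 3′ on the strand of the gene. The motifs were CCGGAAG (ETS/GABPA), GCGCATGC or GCATGCGC (NRF1) and AAGATGG (YY1), each on either strand, and capitals mark the matches. The intervals are chr17:35916391-35916690 (minus strand) for Mrps18b, chr13:14612988-14613287 (minus) for Mrpl32, chr5:31613701-31614000 (plus) for Mrpl33, chr13:99344536-99344835 (plus) for Mrps27, chr11:94653541-94653840 (plus) for Mrpl27 and chr14:54426659-54426958 (plus) for Mrpl52.
Mrps18b: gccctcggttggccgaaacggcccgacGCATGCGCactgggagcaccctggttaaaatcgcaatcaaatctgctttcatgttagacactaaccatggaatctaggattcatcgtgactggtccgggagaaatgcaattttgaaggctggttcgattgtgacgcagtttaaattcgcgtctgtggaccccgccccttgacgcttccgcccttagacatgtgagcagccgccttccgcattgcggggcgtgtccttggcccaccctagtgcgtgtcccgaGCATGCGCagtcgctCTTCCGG
Mrpl32: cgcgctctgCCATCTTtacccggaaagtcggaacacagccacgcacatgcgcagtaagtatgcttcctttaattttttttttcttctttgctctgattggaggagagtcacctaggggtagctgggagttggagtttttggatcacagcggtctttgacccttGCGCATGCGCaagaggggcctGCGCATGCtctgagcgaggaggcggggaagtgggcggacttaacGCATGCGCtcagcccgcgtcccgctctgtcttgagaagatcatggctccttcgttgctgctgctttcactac
Mrpl33: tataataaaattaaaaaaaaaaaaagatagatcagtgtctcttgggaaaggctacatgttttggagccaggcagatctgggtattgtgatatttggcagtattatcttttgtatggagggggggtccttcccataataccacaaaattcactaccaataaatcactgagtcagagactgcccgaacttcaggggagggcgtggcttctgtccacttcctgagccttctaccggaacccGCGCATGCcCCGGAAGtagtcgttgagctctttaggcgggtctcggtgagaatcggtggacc
Mrps27: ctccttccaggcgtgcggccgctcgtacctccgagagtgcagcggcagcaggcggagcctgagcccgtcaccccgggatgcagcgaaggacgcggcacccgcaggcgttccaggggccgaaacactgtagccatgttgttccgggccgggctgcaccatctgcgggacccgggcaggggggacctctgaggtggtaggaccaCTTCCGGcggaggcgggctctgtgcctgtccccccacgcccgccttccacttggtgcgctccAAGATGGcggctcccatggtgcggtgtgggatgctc
Mrpl27: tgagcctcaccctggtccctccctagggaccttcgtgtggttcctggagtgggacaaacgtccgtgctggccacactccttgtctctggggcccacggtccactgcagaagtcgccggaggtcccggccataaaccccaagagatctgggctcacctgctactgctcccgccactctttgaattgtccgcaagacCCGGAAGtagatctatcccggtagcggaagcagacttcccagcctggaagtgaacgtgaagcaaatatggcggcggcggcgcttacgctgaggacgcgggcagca
Mrpl52: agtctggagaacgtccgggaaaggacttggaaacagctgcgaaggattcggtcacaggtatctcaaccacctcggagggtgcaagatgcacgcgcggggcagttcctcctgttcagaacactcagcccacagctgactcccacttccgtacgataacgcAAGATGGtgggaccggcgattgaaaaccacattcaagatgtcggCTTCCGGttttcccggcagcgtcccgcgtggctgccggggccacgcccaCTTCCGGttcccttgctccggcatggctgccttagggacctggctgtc
The promoter of Mrpl32 held 5 matches, of which 4 were NRF1 motifs, with 2 of these overlapping in 1 run of letters. Those of Mrps18b and Mrpl52 held 3 each, and in Mrps18b an ETS/GABPA and an NRF1 motif stood close together at the transcribed end.

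Promoters were found in RefSeq for 68 of the 77 members. The ETS/GABPA motif occurred in 25 of them (36.8%), against 9.1% of the 27025 promoters of this length and 12.3% of the 16522 of protein-coding genes. The NRF1 motif occurred in 8 (11.8%), against 2.8% of all and 3.8% of protein-coding promoters. The YY1 motif was held by 13 (19.1%), against 6.5% and 6.4%. At least 1 of the 3 was present in 37 (54.4%), against 4599 of all 27025 promoters and 20.5% of protein-coding ones. The median GC content was 58.2% in the members' promoters, 57.0% in those of protein-coding genes and 52.7% in all promoters. A match is a stretch of letters and not a measured binding site. Members also tended to have another gene starting nearby on the opposite strand. In GENCODE M21, 33 of the 77 (42.9%) had such a start within 1000 bases on either side of their own, against 10.9% of protein-coding genes. Some of these pairs lie back to back, and others overlap at their starts. Mrpl46 and Mrps11 are a pair within the set that overlaps, while Mrpl32 lies back to back with the proteasome subunit gene Psma2.

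Zbtb16 followed the labels, with 382 normalized counts in Empty vector and 2541 in PLZF-Flag cells, while WT GMPs had 705 and 828 against 369 and 269 in the mutant. Reads recovered from the normalized counts summed to 54529788 and 19995794 in the 416b libraries and to between 37562999 and 40170636 in the GMP libraries. All 9 GMP markers, Mpo and Elane among them, were at 10 or more in GMPs. In 416b cells Kit and Cd34 were high, but Mpo was at 12.1 and 3.30 normalized counts and Elane was not listed. Summed mature neutrophil markers were 972 and 561 in WT, against 1686 and 3934 in Zbtb16lu/lu libraries 1 and 2, and summed B cell markers lay between 3.86 and 8.03. Erythroid and megakaryocyte markers summed to 657 and 2812 in WT and to 612 and 1770 in the mutant, and monocyte and macrophage markers to 7259 and 8915 in WT and to 10738 and 10460 in the mutant. Mast cell and basophil markers summed to 6460 and 6998 in WT, against 4894 and 6390 in the mutant, and the GMP markers to 747620 and 740349, against 847622 and 858940. Stem and multipotent cell markers summed to 559 and 825 in WT and to 834 and 1037 in the mutant. T and NK cell markers summed to between 11068 and 11718, nearly all of it Nkg7 (11056 to 11712). The T cell markers of that list were near the floor, with Cd3e between 0 and 2.98 and Cd3d between 2.98 and 19.5. In bulk RNA, fewer cells of a type and less RNA per cell cannot be told apart, and whether these marker differences have a part in the member values below was not tested.

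All 77 members were expressed in 416b cells. Their normalized counts in Empty vector ran from 507 (Mrps36) to 6437 (Mrpl12, the factor-binding stalk protein), with a median of 2197. In GMPs the median member was at 1940 and 1617 in WT libraries 1 and 2 and at 1609 and 1665 in Zbtb16lu/lu libraries 1 and 2. Of all normalized counts, the members together took 0.542% with the Empty vector and 0.543% with PLZF-Flag. In GMPs this share was 0.384% and 0.339% in WT libraries 1 and 2 and 0.329% and 0.343% in the Zbtb16lu/lu ones. WT library 1 thus stood above the other GMP libraries, which lay close together.

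Divided by exon length, levels of different members can be compared within 1 table. In Empty vector cells the median was 862 normalized counts per kilobase, and the members ran from 161 (Mrpl48) to 5614 (Mrpl34). In WT GMPs the median was 666, from 50.3 (Mrps36) to 2629 (Mrpl18). The order of the members was much alike in both cell types, with a Spearman rho of 0.82 across the 77 genes, which share base composition and length in both tables and come from different library kits. High per-kilobase levels in both were seen for Mrpl18 (2977 in Empty vector and 2629 in WT), Mrpl36 (2995 and 1852) and Mrpl12 (4202 and 1725). Low ones in both were seen for Mrpl48 (161 and 136) and Mrps10 (175 and 93.2), a protein of the small subunit head whose merged exons span 8079 bases.

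The length used matters for the order. With the principal transcript in place of all merged exons, 3 of the 5 highest and 4 of the 5 lowest members in Empty vector were kept, and 2 of the 5 highest and 3 of the 5 lowest in WT GMPs. Mrpl34 and Mrps21 (3210 per kilobase of merged exons) were among the highest in Empty vector on either length, and Mrpl18 and Mrpl24 (1796) in WT GMPs. At the low end, Mrpl1 (182), Mrpl47 (183) and Mrps5 (190) in Empty vector were low on either length, as were Mrps36 and Mrps33 (233) in WT GMPs. Mrps10 was not, its principal transcript being 1018 bases long. Neighbours in such an order need not differ. Mrpl28 (2101 and 1768 per kilobase in WT libraries 1 and 2) and Mrpl36 (1972 and 1733), which follow Mrpl18 in WT GMPs, differed by less than the libraries of each gene.

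**Figure D1:**
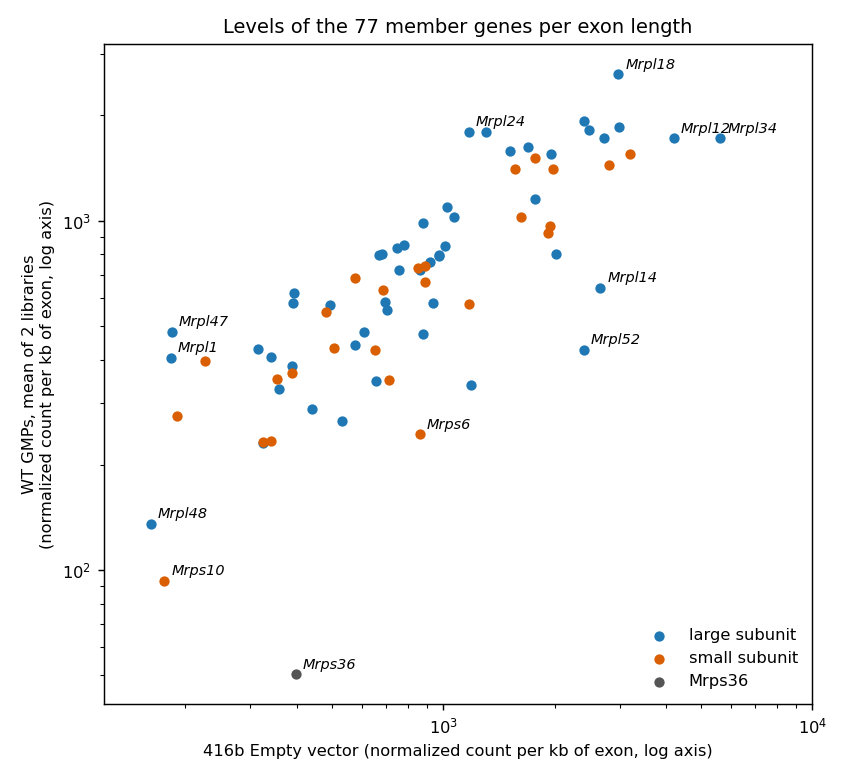
Level of each of the 77 members, as normalized counts per kilobase of merged exons on log axes, in Empty vector 416b cells (1 library, horizontal) and WT GMPs (mean of 2 libraries, vertical), coloured by subunit. Most members lie along 1 diagonal, while Mrps36, Mrpl52, Mrpl14 and Mrps6 lie below it, with lower levels in GMPs than their 416b level would place them at.

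Some members departed from the common order. Levels per kilobase were set against the median member of each table on the log2 scale, and WT GMPs were compared with Empty vector cells. The difference was -2.12 for Mrpl52, -1.68 for Mrpl14 and -1.44 for Mrps6, while it was 1.76 for Mrpl47 and 1.52 for Mrpl1. The largest gap was that of Mrps36, at -2.61. Mrps36 had 63.6, 64.6, 67.9 and 61.2 normalized counts in WT libraries 1 and 2 and Zbtb16lu/lu libraries 1 and 2, against 507 and 521 in the Empty vector and PLZF-Flag libraries. Its processed pseudogenes Mrps36-ps1 (447 and 430 in WT) and Mrps36-ps2 (264 and 214) held more counts in GMPs than the gene itself, and neither was listed for 416b cells. Reads of near-identical copies may be split between them, so the GMP level of Mrps36 is uncertain, and the same holds for Mrpl48 with its copy Mrpl48-ps (1135 and 1067 in WT). Mrpl53 shares 88.0% of its exon bases with a second annotated gene on the same strand, so its counts too are uncertain.

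The first comparison asked whether raising PLZF in 416b cells moved these genes. As a group they hardly moved. After adding 1 to the normalized counts, the median member had a log2 ratio (PLZF-Flag over Empty vector) of 0.0042, against -0.00013 for all 11835 genes with a mean of at least 10. Of the 77, 39 were higher and 38 lower. Their reads summed to 295528 without and 108521 with PLZF-Flag, which after scaling gives a log2 ratio of 0.0038 (95% exact binomial interval -0.0062 to 0.014). Counting error is all that such an interval covers, and since each condition is a single library the conditions could not be tested against each other.

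A log2 ratio of at least 0.25 was reached by 0 members, against 6.58% of all genes. A ratio of at most -0.25 was found for 1 member, Mrpl15, against 9.73%. Of the members, 80% lay between -0.086 and 0.13, and the same share of all genes between -0.24 and 0.19. The 2 sets differ in level, since all genes with a mean of at least 10 are included in the second and the lowest member was at 507, and counting error is larger at low counts. Intervals lay above 0 for 15 members (19.5%), against 16.1% of all genes, and below 0 for 10 (13.0%), against 16% of all genes. The interval of a member extended 0.090 to each side in the median, so that changes near 0.1 were at the edge of what this depth could show.

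**Figure D2:**
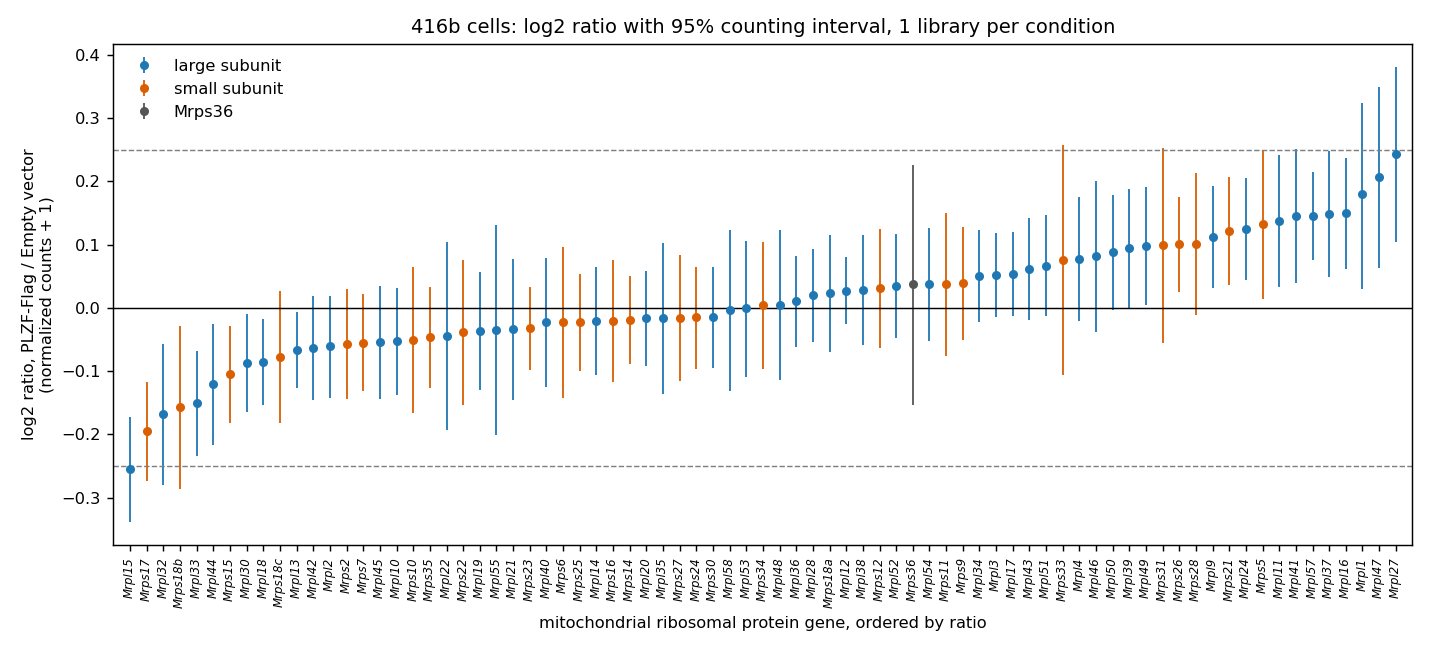
PLZF-Flag over Empty vector as a log2 ratio of normalized counts after adding 1 (vertical axis), for each of the 77 members in order of the ratio, with 95% exact binomial intervals that cover counting error only; colours give the subunit and dashed lines mark 0.25 and -0.25. The points form a continuous range from -0.25 (Mrpl15) to 0.24 (Mrpl27), and most intervals include 0.

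At the low end, Mrpl15 (chr1:4773206-4785739, minus strand of mm10), a large subunit protein with a bacterial counterpart, gave 5035 reads with the Empty vector and 1545 with PLZF-Flag. After scaling these were 3047 and 2554 normalized counts, a log2 ratio of -0.25 (-0.34 to -0.17). Mrps17, of the small subunit body, stood at 3277 and 2862 normalized counts, a ratio of -0.20 (-0.27 to -0.12). Next in order was Mrpl32 (1615 and 1438; -0.17, interval -0.28 to -0.057), whose protein is matured by the mitochondrial m-AAA protease and whose promoter is the one with 4 NRF1 motifs. For Mrps18b (1207 and 1082; -0.16), 1 of a trio of related S18 proteins, the interval ran from -0.29 to -0.029. Mrpl33 (2870 and 2586; -0.15) and Mrpl44 (2144 and 1971; -0.12), which has a ribonuclease III-like fold, also had intervals below 0. So did Mrps15 (-0.10, interval -0.18 to -0.029) and Mrpl30 (-0.087, interval -0.17 to -0.0092). The 8 lowest thus mixed both subunits, and 7 of them encode proteins with a bacterial counterpart, as 46 of all 77 members do.

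The 8 highest were all large subunit genes, which make up 50 of the 77 members. This depends on stopping at 8, since the next in order is the small subunit gene Mrps5 (0.13, interval 0.014 to 0.25), and Mrps21 and Mrps26 also had intervals above 0. Mrpl27 (chr11:94653767-94660089, plus strand), whose bacterial counterpart reaches into the peptidyl transferase centre, gave 1405 Empty vector and 609 PLZF-Flag reads, or 850 and 1006 normalized counts. Its log2 ratio was 0.24 (0.10 to 0.38), just inside the limit of 0.25. Mrpl47 was at 810 and 935 normalized counts (0.21, interval 0.063 to 0.35), and Mrpl1, the protein of the stalk by which tRNA leaves, at 783 and 887 (0.18, interval 0.030 to 0.32). Ratios for Mrpl16, Mrpl37, Mrpl57, Mrpl41 and Mrpl11 lay between 0.14 and 0.15, each with an interval above 0. Large subunit members had a median of 0.022, with 28 of 50 higher, and small subunit members a median of -0.020, with 10 of 26 higher. The difference between the subunits was not tested.

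Several of these named genes overlap a gene on the other strand, which matters for 416b cells because their kit does not mark strand. Exons overlap for Mrps18b with an antisense gene (30.5% of its exon bases), for Mrpl47 with Ndufb5 and Actl6a (13.9% and 10.2%), for Mrpl27 with Eme1 (7.61%) and for Mrpl44 with Wdfy1 (7.66%). For these members, reads in the shared bases cannot be assigned by strand in 416b cells. How the counting treated such reads is not given for either cell type. In all, 28 members had at least 1 such overlap.

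The second comparison asked whether GMPs with mutated PLZF differed from WT GMPs. By limma on log2(normalized count + 1), 0 of the 77 members passed an adjusted p of 0.08, and 0% of the 20531 genes tested did. The lowest adjusted p of a member was 0.44 (Mrps2). At an unadjusted p under 0.05, members numbered 0 higher, against 5.5% of all genes, and 5 lower (Mrpl1, Mrpl3, Mrpl13, Mrps2 and Mrps27), or 6.49% of members against 4.37% of all genes. Count models on the recovered reads also called 0 members, with edgeR calling 0 genes in all and DESeq2 217. Leaving out a WT library, with the lone one assumed to vary like the mutant pair, gave 12 member calls without WT library 1 (15.6%, against 22.7% of all genes) and 16 without WT library 2 (20.8%, against 13.4%). With either Zbtb16lu/lu library left out there were 0 member calls, against 0.312% and 0.00487% of all genes.

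In direction, the members leaned to lower values in Zbtb16lu/lu GMPs. The median log2 fold change was -0.080, against -0.0063 for all genes tested, with 55 members lower and 22 higher. Both Zbtb16lu/lu libraries lay below both WT libraries for 28 members (36.4%), against 22.1% of all genes. The opposite order was found for 2 members (2.60%), Mrpl52 and Mrpl57, against 21.7%. This lean rested on WT library 1. Without it the median was 0.021 and 40 of 77 members were higher, whereas without WT library 2 it was -0.22 and 6 were higher.

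The libraries of a single genotype differed for these genes by as much as the genotypes did. WT library 1 was above WT library 2 for 72 of the 77 members, by a median of 0.23 on the log2 scale, while among all genes 51.0% were higher, by a median of 0.0086. Between the Zbtb16lu/lu libraries the median member was 0.13 lower in library 1. WT library 1 was the highest of the 4 libraries for 62 members (80.5%), which is so for 27.9% of all genes. Across the members, the difference between the WT libraries went up with GC content (Pearson r 0.55) and down with log2 exon length (r -0.48). Over 20004 genes at large these were 0.26 and -0.058. They are descriptions across genes, which are not replicates, and every point shares the same 2 libraries.

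**Figure D3:**
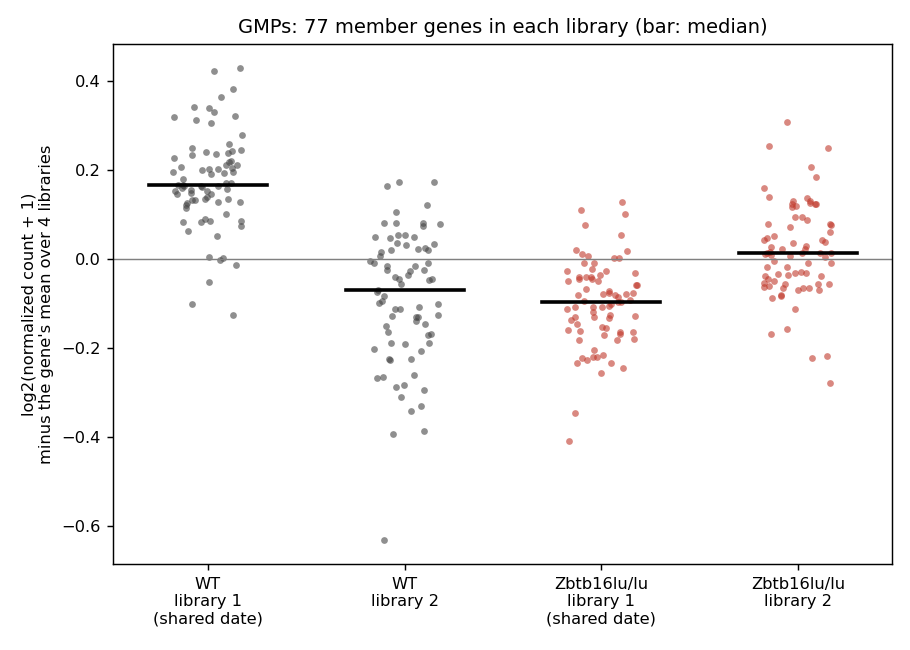
For each of the 77 members, log2(normalized count + 1) in each GMP library minus the gene's mean over the 4 libraries (vertical axis); points are genes, spread sideways at random, and bars are medians. The median is 0.17 in WT library 1, -0.071 in WT library 2, -0.098 in Zbtb16lu/lu library 1 and 0.012 in Zbtb16lu/lu library 2, so WT library 1 stands apart from the other 3.

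Taking the libraries in pairs gave opposite pictures. Between the libraries of the shared date, the members were lower in Zbtb16lu/lu by a median of -0.29 on the log2 scale, with 73 of 77 lower. Between the libraries of the other dates the median was 0.053, with 46 of 77 higher. All genes tested had medians of -0.0046 and -0.0056 in these pairs. Genes of the cytosolic ribosome had medians of 0.051 in the shared-date pair and 0.22 in the other, and between the Zbtb16lu/lu libraries they had a median of -0.14 (library 1 minus library 2), where the members had -0.13. Only 1 date holds both genotypes. A model with date and genotype would therefore rest on the shared-date pair alone, with no spread left to test its difference against.

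**Figure D4:**
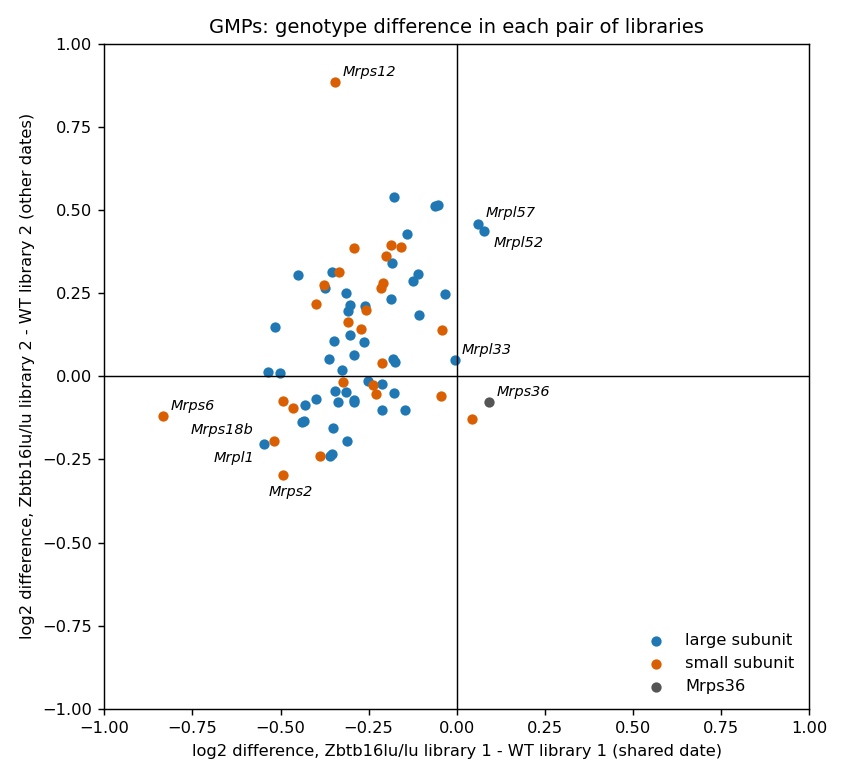
Log2 difference of Zbtb16lu/lu minus WT for each of the 77 members, between the libraries of the shared date (horizontal axis) and between those of the other dates (vertical axis), coloured by subunit. Nearly all points lie left of 0, 73 of 77, but they are divided above and below 0, with 46 above.

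Among members whose genotypes did not overlap, the largest decrease was that of Mrps6 (chr16:92058270-92112227, plus strand), a small subunit protein. It had 424 and 328 normalized counts in WT, against 237 and 302 in Zbtb16lu/lu libraries 1 and 2. The highest mutant and the lowest WT library lay closer together than the WT libraries did, and the log2 fold change was -0.48 with an SE of 0.22 (adjusted p = 0.52). With 1 library left out at a time, the fold change of Mrps6 ran from -0.66 (without WT library 2) to -0.29 (without WT library 1). Of its exon bases, 19.9% and 10.4% are shared with Gm49711 and Slc5a3 on the same strand. Mrps2 (chr2:28468066-28471178, plus strand), another small subunit protein, had 2315 and 1948 in WT, against 1644 and 1587 in Zbtb16lu/lu. The mutant libraries lay close together, at a distance from the lower WT library that was a little less than that between the WT libraries, with a log2 fold change of -0.39, an SE of 0.13 and an adjusted p of 0.44.

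Mrpl1 was at 1756 and 1722 in WT, against 1201 and 1495 in Zbtb16lu/lu (log2 fold change -0.38, SE 0.14). The WT libraries were nearly equal, and the spread was that of the mutant. For Mrps18b, with 1630 and 1230 in WT, against 1137 and 1075 in Zbtb16lu/lu (-0.36, SE 0.16), the reverse held and WT library 1 stood alone, the fold change without it being -0.15. Mrps27, a small subunit protein of the pentatricopeptide repeat family, was at 1638 and 1473 in WT, against 1251 and 1248 in Zbtb16lu/lu (-0.31, SE 0.13). Mrpl3, which lies near the peptidyl transferase centre, had 3145 and 3251 in WT, against 2452 and 2756 in Zbtb16lu/lu (-0.30, SE 0.12). Mrpl3 and Mrpl13 (2729 and 2789 against 2133 and 2373; -0.29, SE 0.12) were members in which WT library 1 was not the higher WT library. Mrpl42, a mitochondria-specific protein, completed the list with 2776 and 2539 against 2056 and 2312 (-0.28, SE 0.13).

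Because these genes were picked for groups that do not overlap, the sign of each pair of libraries is fixed by that choice and only the sizes are described. For Mrpl1, Mrpl3, Mrpl13, Mrps2 and Mrps27 the log2 differences were -0.55, -0.36, -0.35, -0.49 and -0.39 in the shared-date pair and -0.20, -0.24, -0.23, -0.30 and -0.24 in the other. Without WT library 1 the fold changes of these 5 genes ran from -0.36 (Mrpl1) to -0.24 (Mrps27). Without Zbtb16lu/lu library 1 they ran from -0.42 (Mrps2) to -0.21 (Mrpl3), with Mrpl1 at -0.22. With offsets for GC content and length, Mrpl1 moved to -0.20, Mrpl3 to -0.21, Mrpl13 to -0.12 and Mrpl42 to -0.14, while Mrps2 was at -0.40, Mrps6 at -0.51, Mrps18b at -0.42 and Mrps27 at -0.37. All 8 of these genes had adjusted p-values between 0.44 and 0.52 by limma, and the difference did not pass the test for any of them.

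The 2 members that were higher in Zbtb16lu/lu were both mitochondria-specific large subunit genes. Mrpl57 (chr14:57826234-57829296, plus strand) was at 1056 and 947 in WT, against 1102 and 1301 in Zbtb16lu/lu, a log2 fold change of 0.26 with an SE of 0.15 (adjusted p = 0.58). Mrpl52 (chr14:54426909-54429756, plus strand), whose promoter was shown with 3 motif matches, was at 474 and 474 in WT, against 501 and 641 in Zbtb16lu/lu, a log2 fold change of 0.26 with an SE of 0.18 (adjusted p = 0.63). With offsets for GC content and length they were at 0.41 and 0.20. In both genes the lower mutant library lay just above WT, and Zbtb16lu/lu library 2 carried most of the difference.

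**Figure D5:**
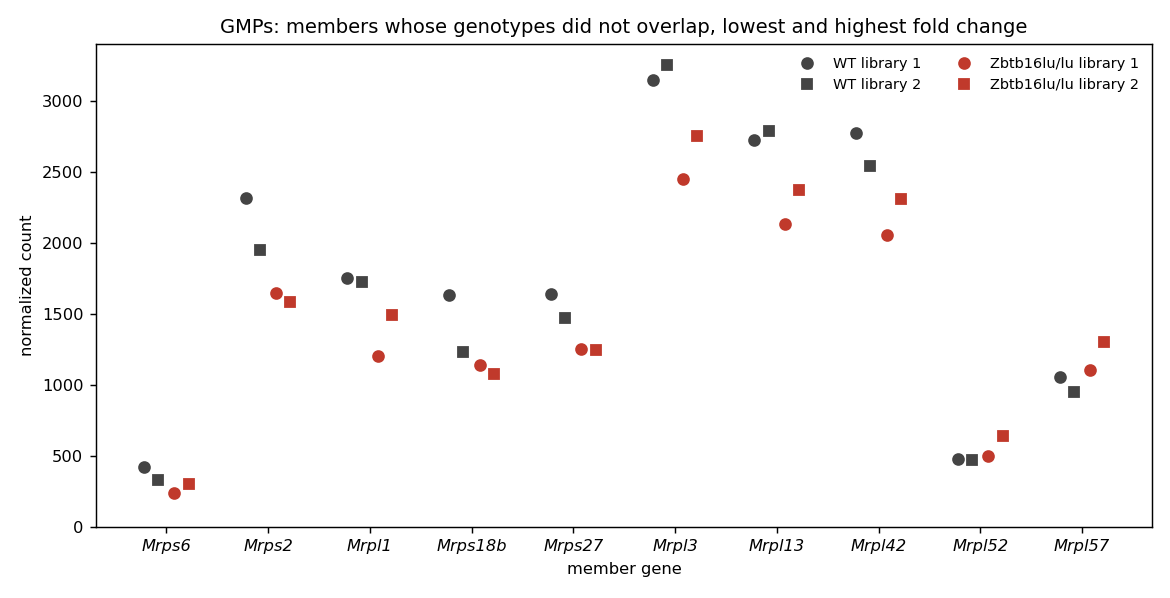
Normalized counts in each GMP library for the 8 members with the lowest and the 2 with the highest fold change among those whose genotypes did not overlap; grey is WT, red Zbtb16lu/lu, circles library 1 and squares library 2. Red symbols lie below grey ones for the first 8 genes and above them for Mrpl52 and Mrpl57, and the gap between the genotypes is often no wider than that between libraries of 1 genotype.

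Mrps12, a protein of the decoding centre, shows how far libraries of 1 genotype could differ. It was at 1339 and 671 in WT, against 1054 and 1241 in Zbtb16lu/lu libraries 1 and 2. The WT libraries enclosed both mutant libraries, and the log2 difference was -0.35 in the shared-date pair and 0.89 in the other. This gene was chosen after its values were seen.

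Classes of members were described in GMPs by their medians, with no test between them. The median log2 fold change was -0.11 for the large subunit (37 of 50 lower) and -0.058 for the small subunit (18 of 26 lower). It was -0.090 for members with a bacterial counterpart and -0.064 for mitochondria-specific ones. Members with at least 1 of the promoter motifs had a median of -0.064 and those with none -0.12. In 416b cells the members with and without a motif had medians of 0.010 and -0.015.

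Raising and mutating PLZF can be set side by side, since the experiments share no sample. Of the 38 members lower in PLZF-Flag, 33 were also lower in Zbtb16lu/lu GMPs, and of the 39 that were higher, 22 were lower in the mutant. The Pearson correlation of the 2 sets of values across the 77 members was 0.10. Mrps18b was low in both (-0.16 in 416b cells and -0.36 in GMPs), and Mrpl57 was high in both (0.15 and 0.26). Mrpl1 had opposite signs, at 0.18 in 416b cells and -0.38 in GMPs. Cell type and library kit differ between the experiments as well as the direction of the PLZF change.

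A few members appear on supplementary lists of genes next to enhancers whose H3K27ac differed with PLZF or with age. Mrpl2, Mrpl33, Mrpl38, Mrpl41, Mrpl49, Mrps2, Mrps10 and Mrps15 are listed beside enhancers that PLZF binds and that lose H3K27ac when it is expressed. These lists were drawn up on other assays of the same study and do not stand as independent evidence. In 416b cells the 8 had a median log2 ratio of -0.054, with 3 higher, against 0.0052 for the other 69. Mrpl33 and Mrps15 had intervals below 0, Mrpl41 (0.15) and Mrpl49 (0.097) above 0, and those of Mrpl2 (-0.061), Mrpl38 (0.029), Mrps2 (-0.056) and Mrps10 (-0.051) included 0. In GMPs the median fold change of the 8 was -0.054, with 6 lower, against -0.089 for the other 69, with 49 lower.

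Mrpl1, Mrpl33 and Mrps26 are listed beside enhancers that gain H3K27ac in Zbtb16lu/lu GMPs. Their log2 fold changes in GMPs were -0.38, 0.022 and 0.081. Mrpl33, among the most abundant members there, had 3982 and 4520 normalized counts in WT, against 3965 and 4679 in Zbtb16lu/lu. Its 2 genotypes overlapped almost fully. Mrps26 was at 1778 and 1268 in WT, against 1546 and 1631 in Zbtb16lu/lu, so that WT again enclosed the mutant. Mrpl37, Mrps10 and Mrps35, listed beside enhancers that gain H3K27ac with age but not among those that gain it in Zbtb16lu/lu GMPs, had fold changes of -0.024, -0.042 and -0.17 in the transplanted GMPs measured here.

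Other genes of mitochondrial translation were counted in the same way. Over all genes, 6.58% reached the fold on the higher side in 416b cells and 9.73% on the lower, and in GMPs 4.37% were lower at an unadjusted p under 0.05. Of 5 other ribosomal proteins, 0 passed the fold in 416b cells and 1, Ptcd3, was among the lower ones in GMPs (-0.28). Of 24 assembly factors, 2 reached 0.25 in 416b cells, Nsun4 (0.32, interval 0.14 to 0.49), which methylates the small subunit rRNA, and Mterf4 (0.27, interval 0.065 to 0.46), its partner, and 0 reached -0.25. In GMPs, 6 of the 24 did not overlap, all lower in Zbtb16lu/lu, which is near the 22.1% of all genes, and 2 were lower at an unadjusted p under 0.05, C1qbp (-0.42) and Fastkd2 (-0.32). Of 15 translation factors, 0 passed the fold in 416b cells and 9 did not overlap in GMPs, all lower, against 22.1% of all genes, and 1, the elongation factor Gfm1 (-0.39), was at such a p. No gene of these lists passed the adjusted threshold in GMPs.

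Of the 5 genes for mitochondrial transcription, 1, Mterf1a (0.32, from 325 and 149 reads), reached 0.25 in 416b cells, against 6.58% of all genes, and Tfam, which packages mitochondrial DNA, was at 0.15 there (0.070 to 0.22). In GMPs 3 of the 5 did not overlap, all lower in Zbtb16lu/lu, against 22.1% of all genes, namely Tfam (-0.24), Tefm (-0.35) and Mterf1a (-0.38), and the median of the 5 was -0.24. Among regulators, the factors whose motifs were sought had log2 ratios in 416b cells of -0.034 for Nrf1, -0.018 for Gabpa and 0.049 for Yy1, each with an interval that included 0. In GMPs they were at -0.077, -0.048 and -0.10. Ppargc1b, the 1 of 8 regulators past the fold in 416b cells (6.58% of all genes), was at 0.32 there (0.077 to 0.56) and at -0.37 in GMPs. Myc, a known driver of ribosome genes, was at 0.051 (0.012 to 0.090) and at -0.28. Of the 8 regulators, 3 did not overlap in GMPs, all lower in Zbtb16lu/lu, against 22.1% of all genes, and these were Nrf1, Yy1 and Ppargc1b. The mitochondrial RNAs that this ribosome translates or contains, 15 genes, were listed at 0 in all 4 GMP libraries and not listed for 416b cells, so they could not be compared.

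Genes of the cytosolic ribosome lay on the other side of 0 from the members in GMPs. In 416b cells their median log2 ratio was 0.0073 over 81 genes, as flat as that of the members. In GMPs it was 0.13 over 87 genes, where that of the members was -0.080, and 37 did not overlap on the higher side and 2 on the lower, where the shares over all genes were 21.7% and 22.1%. At an unadjusted p under 0.05 there were 13 higher and 0 lower, against 5.5% and 4.37% of all genes, and 0 passed the adjusted threshold by limma. The difference between the 2 sets was not tested.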

How the data were processed

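RNA of sorted GMPs (stranded TruSeq kit after Ribo-Zero depletion of ribosomal RNA, paired-end) and of GFP-sorted 416b cells (SMART-Seq v3, single-end, which does not mark strand) was sequenced. The authors aligned reads to mm10 with Subread, counted them per gene with featureCounts (1.5.0 in the submitters' processing notes) and scaled each library by its DESeq2 size factor, so the deposited signal values are normalized counts. The strand setting of the counting is not given in the sources used here. The log2 values, fold changes and p-values that the authors also deposited were not used, and neither ChIP-seq nor ATAC-seq was used here.

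Every GMP value was a whole multiple of the value of 1 read, within 1e-06 of a read, and 84.3% and 85.5% of Empty vector and PLZF-Flag values were within 0.1 read of one. Reads were recovered from these steps, and 1 row of the 416b table without a gene name was left out, as were counts on no gene. In 416b cells the log2 ratio after adding 1 was given with a 95% Clopper-Pearson interval, for genes with a mean of at least 10. In GMPs, limma 3.58.1 with an intensity trend was fitted on log2(value + 1) for the 20531 genes that reached 10 in 2 or more libraries. Its p-values were adjusted by Benjamini-Hochberg over all of them with 0.08 as threshold. The fit was tested on simulated data whose libraries differed only in size, so that test does not cover a shift such as that of WT library 1. GEO gives 1 sample per genotype for the 2 library columns, which were used as replicates because the methods state independent RNA extractions; the fit then measures the spread between these libraries only. Levels per kilobase used merged exons of GENCODE M21. Alternatives were other scalings, pseudocounts, filters and thresholds, offsets for GC content and length, edgeR 4.0.16 and DESeq2 1.42.0 on the recovered reads, and leaving out each library. The principal transcript length and the libraries of the other dates alone were added after seeing the data.

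Members and gene lists were chosen with earlier results of these data known. The genes named are the 8 lowest and 8 highest members in 416b cells (at least 100 reads), the same in GMPs among members whose genotypes do not overlap, the 5 highest and 5 lowest per kilobase, and those on the enhancer lists of the study. Analyses used R 4.3.3, Python 3.11.15, scipy 1.17.1 and pandas 2.3.3.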

Additional observations from a re-analysis of the deposited data

How the results depend on the processing

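In 416b cells, the median ratio of the members lay between 0.0018 and 0.0042 under other scalings, pseudocounts and filters and counts past the fold did not change, except that 0 members were below -0.5 when that fold was used in place of 0.25. In GMPs, the median fold change lay between -0.085 and -0.052 under other scalings, pseudocounts, filters and tests, and 0 members passed the threshold in any of them, while DESeq2 called 217 genes in all. With offsets for GC content and length, 1 member was higher and 8 were lower at an unadjusted p under 0.05, against 4.65% and 3.48% of all genes, and Mrpl2 (-0.049) and Mrps10 (0.017) changed sign. Mrpl33 (0.084), Mrpl37 (-0.045), Mrpl38 (-0.32), Mrpl41 (-0.11), Mrpl57 (0.41) and Mrps15 (-0.28) grew by more than 1.5 times, and Mrpl1 (-0.20), Mrpl13 (-0.12), Mrpl42 (-0.14) and Mrps35 (-0.052) shrank by as much; the cause was not tested.

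Leaving out 1 library at a time, which assumes that the lone library of a genotype varies like the other 2, changed several results. The median ran from -0.22 (without WT library 2) to 0.021 (without WT library 1), members past the threshold from 0 to 16, all genes past it from 1 to 4662, and members at an unadjusted p under 0.05 from 0 to 11 higher (the most without WT library 1, where 15.8% of all genes were) and from 0 to 32 lower (the most without WT library 2, with 11.4% of all genes). Members were called only in the fits without a WT library, 12 without WT library 1, where 4662 of all genes were called, and 16 without WT library 2, where 2749 were. Among the genes on the enhancer lists, fold changes ran from -0.074 to 0.36 for Mrpl2, -0.098 to 0.14 for Mrpl33, -0.21 to 0.16 for Mrpl37, -0.33 to 0.24 for Mrpl38, -0.38 to 0.23 for Mrpl41, -0.17 to 0.039 for Mrpl49, -0.19 to 0.11 for Mrps10 and -0.16 to 0.32 for Mrps26.

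With only the shared-date libraries the median was -0.29, and Mrpl2 (-0.14), Mrpl33 (-0.0062), Mrps10 (0.044) and Mrps26 (-0.20) changed sign. With only the others it was 0.053, and Mrpl37 (0.21), Mrpl38 (0.22), Mrpl41 (0.30) and Mrpl49 (0.053) did. No paired analysis was possible because the genotypes share only 1 date. With 2 libraries per genotype, a member's SE was 0.14 in the median.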

Other observations

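The genes Mrps18a, Mrps18b and Mrps18c encode related S18 proteins, of which Mrps18a sits in the large subunit. In Empty vector and PLZF-Flag cells they were at 2121 and 2155, at 1207 and 1082, and at 1748 and 1657 normalized counts, log2 ratios of 0.023 (-0.070 to 0.12), -0.16 (-0.29 to -0.029) and -0.077 (-0.18 to 0.027). In GMPs their log2 fold changes were -0.066, -0.36 and -0.050, and the genotypes overlapped for Mrps18a and Mrps18c. These genes were chosen after their values were seen, and differences between them were not tested.

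The pair Mrpl46 and Mrps11, of the large and the small subunit, overlaps at its starts and shares 173 exon bases on opposite strands. In 416b cells the pair had log2 ratios of 0.082 and 0.038, with intervals that included 0. In GMPs Mrpl46 was at 1501 and 1281 in WT, against 1181 and 1242 in Zbtb16lu/lu (log2 fold change -0.19, SE 0.14), with no overlap, whereas Mrps11 was at 1079 and 770 in WT, against 881 and 1007 in Zbtb16lu/lu (0.047, SE 0.18). This pair, too, was chosen after its values were seen.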
